A study of Mus musculus with 4 samples.

Results

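The genes described here are 28 that encode enzymes and regulators of sterol, fatty acid and phospholipid synthesis, of 18194 genes read by the array. They were chosen by name, and all 72 of their probe sets that carry a single gene symbol were used, averaged per gene. Of the 28, 27 had a mean log2 signal over the 4 arrays above 7.05, the median of all genes, and went into the tests with the other genes past this filter (9097 in all). Elovl6, an elongase of saturated fatty acids, was the exception, with 4.70 and 4.64 in the bleomycin arrays of Tlr4-/- and wild-type cells and 4.79 and 4.81 in the untreated ones. The cells were mouse type II alveolar epithelial cells (AEC2), sorted by flow cytometry, and the study asked how hyaluronan and TLR4 bear on their renewal and on lung fibrosis. There were 4 groups with 1 array each: Tlr4-/- AEC2 from lungs 4 days after injury with the drug bleomycin, wild-type AEC2 from lungs 4 days after bleomycin, Tlr4-/- AEC2 from untreated lungs, and wild-type AEC2 from untreated lungs. Each array held the RNA of cells pooled from 4 to 5 mice, so the spread within a group is unknown. The Tlr4 allele, the strain, age and sex of the mice and the dose of bleomycin are not in the labels.

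AEC2 make pulmonary surfactant, a film rich in phosphatidylcholine with saturated acyl chains and some cholesterol, and they draw its lipids in part from their own synthesis. Acetyl-CoA enters both branches of lipid synthesis: the mevalonate pathway leads through squalene and lanosterol to cholesterol, and the fatty acid branch leads to the acyl chains that the choline pathway joins into phosphatidylcholine. The transcription factors SREBP-1 and SREBP-2, which are escorted to their activation by SCAP and held back by INSIG when sterols are plentiful, act on the genes of both branches.

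Surfactant genes were bright on every array, Sftpc at 14.05 and 14.06 in the Tlr4-/- and wild-type bleomycin arrays and 14.02 and 14.03 in the untreated ones, and 11 of 11 AEC2 markers passed the filter. After bleomycin 9 of these 11 were lower in Tlr4-/- cells, with a median of -0.16, and 7 of 11 in wild-type cells, with a median of -0.01, and on the bleomycin arrays all 11 read lower in Tlr4-/- cells than in the wild type, with a median of -0.13, against 6 of 11 untreated. Markers of other cells moved between the pools. The summed linear signal of 12 leukocyte and macrophage markers was 6735 and 5237 in the Tlr4-/- and wild-type bleomycin arrays, against 2008 and 1982 in the untreated arrays. Of the 12, 10 passed the filter, 5 of them only through the bleomycin arrays, and Adgre1 was the dimmest, with a mean of 5.54. The summed signal of 5 club cell markers was 21520 and 21320 in the Tlr4-/- and wild-type bleomycin arrays, against 15940 and 28000 in the untreated arrays, and that of 3 mesothelial markers was 1239 and 1514, against 313.3 and 809. Of 5 fibroblast markers 2 passed the filter. Col1a1 was higher after bleomycin by 1.68 in Tlr4-/- and 1.36 in wild-type cells, and Plin2 differed by 0.21 and -0.08. Of 4 endothelial markers 0 passed the filter. The bleomycin arrays also read higher for Eif2s3y, a gene of the Y chromosome, by 2.01 in Tlr4-/- and 2.03 in wild-type cells, and lower for Xist, of the X chromosome, with differences of -1.27 and -0.62. Fewer AEC2 in a pool and less RNA per cell cannot be told apart, and the part of other cells and of the mice's sex in the results below was not tested. Tlr4 was read by 4 probe sets, which disagreed. In Tlr4-/- cells 1 of them was lower, at 6.39 against 9.07 in wild type after bleomycin and 7.24 against 8.87 untreated. The brightest and a dimmer one were higher in Tlr4-/- cells, by 0.41 and 0.49 after bleomycin and by 0.66 and 0.43 untreated, and the last was dim on every array.

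Since SREBP-2 and its partners act at promoters, the 250 bases before the transcription start were read for the 22 members that RefSeq's promoter table (GRCm38.p6) holds, in 30 entries. Both strands were searched for the CCAAT box of NF-Y (CCAAT, or ATTGG), a core of the sterol regulatory element (TCACNCCAC), the E-box CACGTG and the GC box GGGCGG. The promoters of Hmgcs1 and Mvd, from the mevalonate pathway, and of Fasn and Acly, from the fatty acid branch, are shown to compare the branches, with the CCAAT box, the sterol core and the E-box in capitals.
Hmgcs1, chr13:119690101-119690350, plus strand: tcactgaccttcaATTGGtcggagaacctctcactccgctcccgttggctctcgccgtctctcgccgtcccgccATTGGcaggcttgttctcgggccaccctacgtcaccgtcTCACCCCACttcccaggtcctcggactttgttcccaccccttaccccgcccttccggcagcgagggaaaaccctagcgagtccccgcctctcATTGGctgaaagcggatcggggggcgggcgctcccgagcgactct
Mvd, chr8:122443423-122443672, minus strand: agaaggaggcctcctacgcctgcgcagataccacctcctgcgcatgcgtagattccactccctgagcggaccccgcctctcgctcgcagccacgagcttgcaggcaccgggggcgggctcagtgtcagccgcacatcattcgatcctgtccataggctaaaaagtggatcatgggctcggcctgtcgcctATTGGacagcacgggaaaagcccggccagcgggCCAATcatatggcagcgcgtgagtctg
Fasn, chr11:120824548-120824797, minus strand: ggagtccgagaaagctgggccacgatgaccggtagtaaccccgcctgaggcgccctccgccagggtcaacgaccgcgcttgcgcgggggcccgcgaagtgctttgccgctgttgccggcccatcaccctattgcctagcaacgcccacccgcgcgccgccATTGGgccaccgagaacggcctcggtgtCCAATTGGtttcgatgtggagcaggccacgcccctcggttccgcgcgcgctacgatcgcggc
Acly, chr11:100528001-100528250, minus strand: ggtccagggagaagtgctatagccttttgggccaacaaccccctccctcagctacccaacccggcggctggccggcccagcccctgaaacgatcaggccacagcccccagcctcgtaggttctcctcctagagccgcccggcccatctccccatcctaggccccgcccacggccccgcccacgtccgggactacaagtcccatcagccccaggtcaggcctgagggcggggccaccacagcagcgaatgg
Hmgcs1 had 3 CCAAT boxes and the sterol core, which starts 137 bases before the transcription start, Mvd had 2 CCAAT boxes and Fasn 3, of which 2 overlap, while Acly had 0. All 9 of the mevalonate and sterol members with an entry held a CCAAT box, against 2 of 7 fatty acid members, 3 of 4 regulators and 1 of 2 phospholipid members. Among all 27025 genes with an entry, 37.5% held the box. Over entries, the box stood in 16 of 30 (53.3%), against 33.8% of all 32851 promoters. The sterol core was found in 3 of 30, against 1.05% of all,, at Hmgcs1 and at both of 2 overlapping entries of Pcyt1a, the E-box in 4 of 30 (13.3% against 6.02%) and the GC box in 23 of 30 (76.7% against 32.7%). Some entries precede starts inside a gene. The Acaca entry, counted without a CCAAT box, lies at chr11:84195188-84195437, in a gene that spans 84129635 to 84401651. The Fasn entry also lies inside its gene. Dhcr7, counted with a CCAAT box, held it only in its entry at chr7:143829964-143830213, in a gene that spans 143823167 to 143848410. These matches describe letters in a window and not binding.

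After bleomycin, 25 of 27 members were lower in the Tlr4-/- pool, with a median log2 difference of -0.20. In the wild-type pool 11 were lower and 16 higher, with a median of 0.06. Over all genes past the filter 48.3% were lower in Tlr4-/- cells, and in wild-type cells 40.4% were lower and 59.5% higher, with medians of 0.01 and 0.07. The Tlr4-/- response was below the wild-type response for 26 of 27 members, against 59.2% of all genes, and 14 were lower in Tlr4-/- but higher in wild-type cells, against 20.6%. The median difference of the responses was -0.26, against -0.07 over all genes and -0.06 over the 11 AEC2 markers. Those markers ran from -0.60 (Etv5) to 0.36 (Napsa). The markers' own medians after bleomycin, -0.16 in Tlr4-/- and -0.01 in wild-type cells, stand beside these values. What a change in AEC2 content adds to them was not tested. Some markers read near the top of the signal range, with means of 14.04 for Sftpc, 13.98 for Lyz2 and 13.96 for Sftpb. A change in such a gene can be understated. The sizes were small: a difference between single arrays had a standard deviation of 0.23 by limma's prior, which rests on how the genotypes' responses differ and not on replicates, and 3 members (Sc5d, Srebf1 and Fads2) were at least 1.5-fold lower in Tlr4-/- cells, against 5.13% of all genes, and 0 were higher at that size, against 7.97%. In wild-type cells 0 were 1.5-fold lower and 0 higher, against 2.69% and 8.42% of all genes. The difference of the responses has no replicate check and was not tested.

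**Figure D1:**
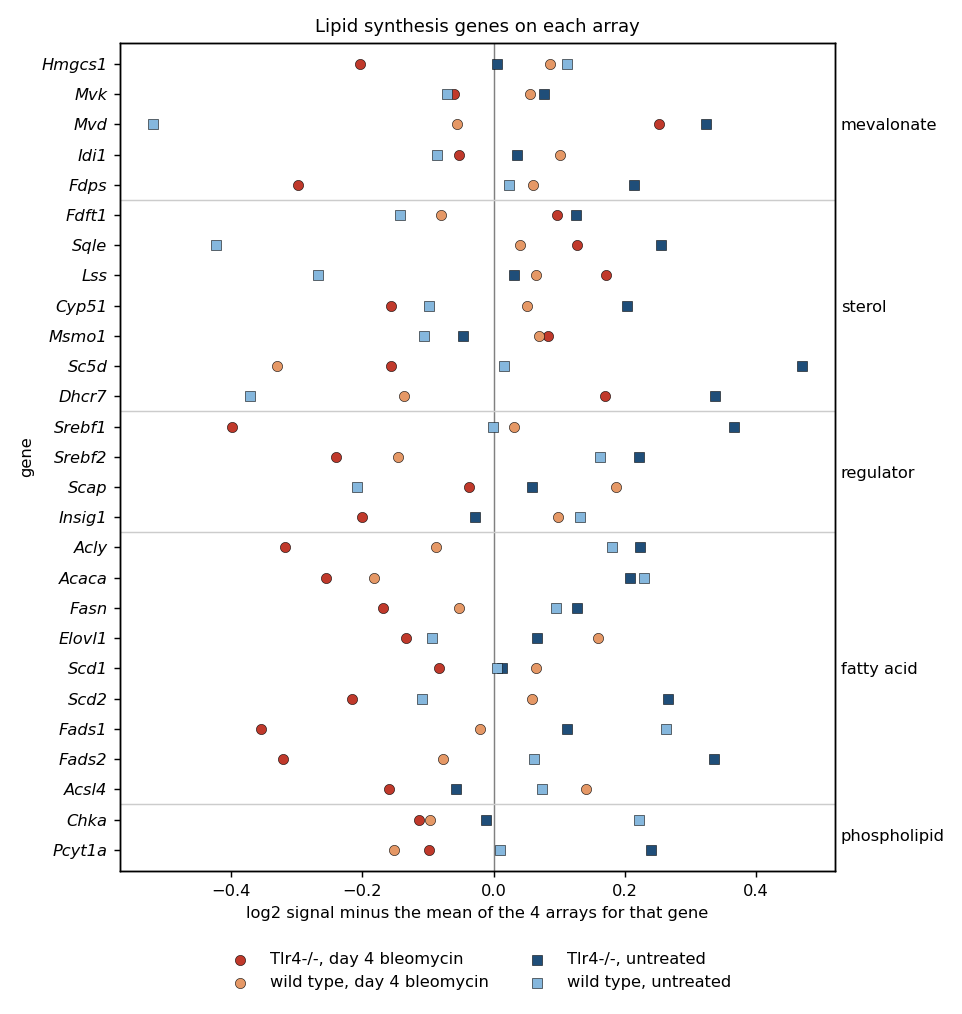
Log2 signal of each of the 27 members past the filter on each of the 4 arrays (points), less the gene's mean over the arrays, with genes grouped by role. The Tlr4-/- bleomycin array was lowest for 16 members, and the Tlr4-/- untreated array was highest for 15 and lowest for 0.

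Looked at by array, the Tlr4-/- bleomycin array was the lowest of the 4 for 16 of 27 members, against 25.3% of all genes, and the wild-type bleomycin array for 2, against 15.4%. The Tlr4-/- untreated array was the highest for 15, against 28.9%, and the lowest for 0, against 19.2%. The wild-type untreated array was the lowest for 9 of 27, a share below the 40.1% of all genes. These 9 were Mvk, Mvd, Idi1, Fdft1, Sqle, Lss, Msmo1, Dhcr7 and Scap. Of them, 8 belong to the mevalonate and sterol groups, which hold 12 of the 27 members. The Tlr4-/- response and the untreated genotype difference share the Tlr4-/- untreated array, so a high signal there lowers the one and raises the other.

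In limma's additive fit of treatment and genotype over the 4 arrays, which has 1 residual degree of freedom per gene and treats unequal responses as error, 0 of 27 members were called for bleomycin at an adjusted p under 0.05, against 9.71% of all genes. At an unadjusted limma p under 0.05 there were 6 members, Sc5d, Srebf2, Acly, Acaca, Fads1 and Fads2, all lower, against 23.9% of all genes in either direction and 8.24% that were lower. The signals of 9 members were lower on both bleomycin arrays than on both untreated arrays (those 6 with Fasn, Chka and Pcyt1a), against 21.7% of all genes, and Lss and Msmo1 were higher on both, 2 of 27 against 30.4%. With other settings Acly passed without probe sets that carry a suffix (-0.61, limma adjusted p = 0.0261), and Acaca with an intensity trend in the prior (-0.44, limma adjusted p = 0.0362). Without the wild-type untreated array, in a fit of treatment with no genotype term, Sc5d was at -0.71. That fit sets both bleomycin arrays against the Tlr4-/- untreated array alone, so a genotype difference enters its value.

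Among the 5 enzymes of the mevalonate pathway, all were lower after bleomycin in Tlr4-/- cells, with differences of -0.07 to -0.51, and 4 of 5 were higher in wild-type cells. Hmgcs1 makes HMG-CoA, the precursor of mevalonate. It read 10.75 and 11.04 in the Tlr4-/- and wild-type bleomycin arrays, against 10.96 and 11.06 in the untreated arrays, so its Tlr4-/- bleomycin array was the low one. Mvk, the kinase that acts on mevalonate, read 9.10 and 9.21 after bleomycin and 9.23 and 9.09 untreated, within 0.15 in each comparison. Mvd, the decarboxylase that forms isopentenyl diphosphate, read 9.29 and 8.98 after bleomycin in Tlr4-/- and wild-type cells, against 9.36 and 8.52 untreated. Its wild-type untreated signal stood below the other 3, and the average after bleomycin was higher by 0.20 ± 0.17 (SE, limma, 2 pairs of arrays, adjusted p = 0.551). Idi1, which isomerises isopentenyl diphosphate, read 12.37 and 12.53 after bleomycin and 12.46 and 12.34 untreated. Fdps, the synthase of farnesyl diphosphate, read 7.58 and 7.94 after bleomycin and 8.09 and 7.90 untreated. That average holds a dim probe set: the bright one read 10.33 and 11.08 after bleomycin, against 11.32 and 10.92 untreated, and was 1.98-fold lower after bleomycin in Tlr4-/- cells, with a difference of 0.16 in wild type.

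Of the 7 enzymes from squalene onward, 5 were lower after bleomycin in Tlr4-/- cells and 6 higher in wild-type cells. Sqle, the squalene epoxidase at which the pathway is often limited, read 10.74 and 10.65 in the Tlr4-/- and wild-type bleomycin arrays, against 10.87 and 10.19 untreated. As for Mvd, the wild-type untreated array was the low one, and the average after bleomycin was higher by 0.17 ± 0.18 (SE, limma, adjusted p = 0.63). Lss, which closes the ring to lanosterol, read 10.57 and 10.46 after bleomycin and 10.43 and 10.13 untreated; it had the highest average of the members, 0.24 ± 0.16 (SE, limma, adjusted p = 0.403). Dhcr7, which completes cholesterol, read 10.52 and 10.21 after bleomycin and 10.68 and 9.97 untreated, so both Tlr4-/- signals stood above both wild-type ones. Fdft1, the squalene synthase, read 8.91 and 8.74 after bleomycin and 8.94 and 8.67 untreated, again with both Tlr4-/- signals on top. Cyp51, the lanosterol demethylase, read 9.59 and 9.80 after bleomycin and 9.95 and 9.65 untreated. Sc5d, a sterol desaturase, read 8.03 and 7.86 after bleomycin and 8.66 and 8.20 untreated, the lowest average of the members, -0.49 ± 0.16 (SE, limma, lower in 2 of 2 genotypes, adjusted p = 0.0758). Its 3 probe sets disagreed: the brightest was higher after bleomycin by 0.22 in Tlr4-/- and 0.15 in wild-type cells, and the other two were lower, with differences of -1.19 and -0.92 in Tlr4-/- and of -0.43 and -0.76 in wild-type cells. Msmo1, a sterol methyl oxidase, read 9.08 and 9.06 after bleomycin and 8.95 and 8.89 untreated. Here too the probe sets went opposite ways in Tlr4-/- cells, -0.35 for the bright one and 0.61 for the dim one, so its average says little.

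**Figure D2:**
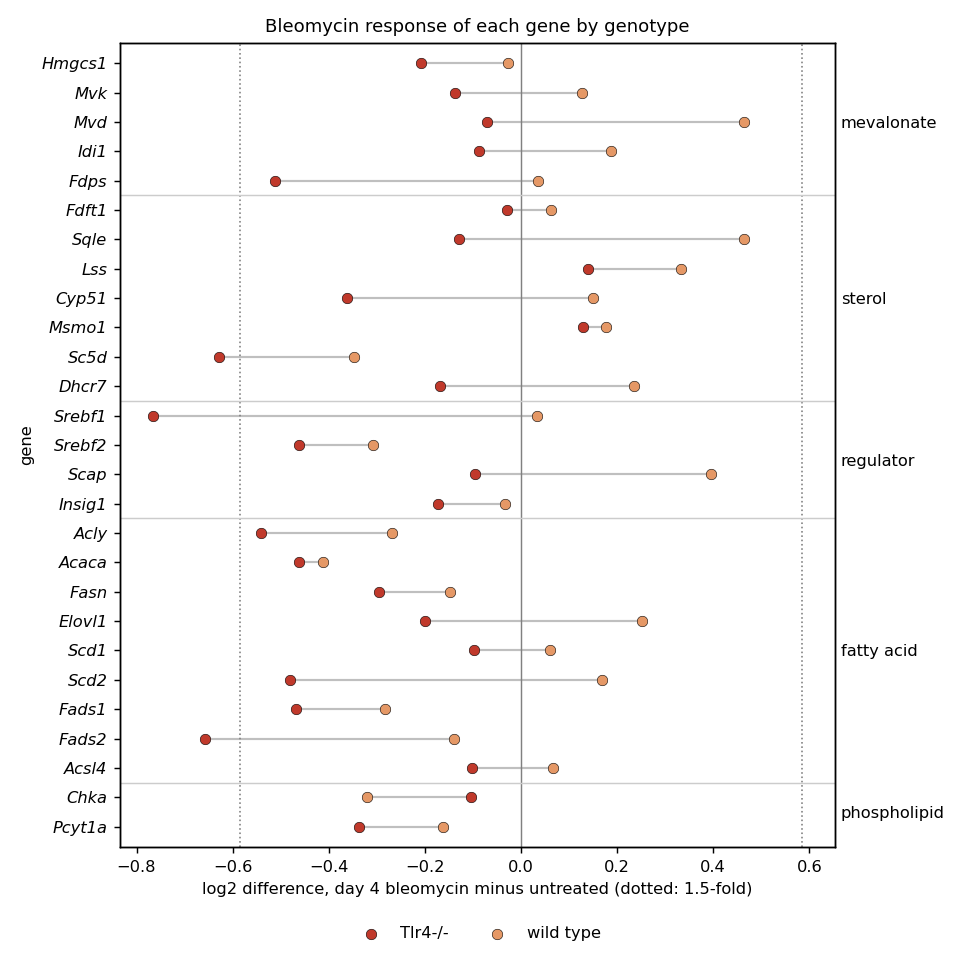
Log2 difference between the bleomycin and untreated arrays of Tlr4-/- cells and of wild-type cells, for each of the 27 members, with dotted lines at 1.5-fold. Chka was the member whose Tlr4-/- point lay to the right of its wild-type point, and Srebf1 had the widest gap, -0.80.

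All 4 regulators were lower after bleomycin in Tlr4-/- cells, with a median of -0.32, and in wild-type cells 2 were lower and 2 higher. Srebf1 encodes SREBP-1, the main activator of fatty acid synthesis. It read 10.05 and 10.48 in the Tlr4-/- and wild-type bleomycin arrays, against 10.82 and 10.45 untreated. The wild-type arrays were within 0.03 of each other, and the Tlr4-/- arrays bracketed them, 1.70-fold lower after bleomycin than untreated. The difference of the responses was -0.80, the lowest of the members. The average after bleomycin was -0.37 ± 0.19 (SE, limma, adjusted p = 0.275). Srebf2, for SREBP-2, the main activator of cholesterol synthesis, read 10.54 and 10.63 after bleomycin and 11.002 and 10.94 untreated, lower on both bleomycin arrays, with an average of -0.39 ± 0.16 (SE, limma, adjusted p = 0.151). Scap read 7.9998 and 8.22 after bleomycin and 8.10 and 7.83 untreated, a difference of -0.10 in Tlr4-/- cells and of 0.40 in wild-type cells. Its brighter probe set differed by -0.18 and 0.14, and the dimmer one, with a mean of 6.34, by -0.01 and 0.65. Insig1, which is itself an SREBP target, read 11.93 and 12.23 after bleomycin and 12.10 and 12.26 untreated, so both Tlr4-/- signals stood below both wild-type ones.

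The fatty acid branch was lower after bleomycin in Tlr4-/- cells for all 9 genes past the filter, with a median of -0.46, and in wild-type cells for 5 of 9, with a median of -0.14. Acly, which makes cytosolic acetyl-CoA from citrate, read 8.43 and 8.66 in the Tlr4-/- and wild-type bleomycin arrays, against 8.97 and 8.93 untreated, an average of -0.40 ± 0.16 (SE, limma, adjusted p = 0.14). Its 3 brightest probe sets were lower, with differences of -0.57, -1.30 and -0.90 in Tlr4-/- cells and of -0.27, -0.47 and -0.13 in wild type. Of the other 3, 2 were dim, with means of 5.14 and 4.06, so the gene average understates the brightest ones in Tlr4-/- cells. The remaining one, with a mean of 7.31, went against their genotype pattern, at -0.18 in Tlr4-/- and -0.72 in wild-type cells. Acaca, the acetyl-CoA carboxylase that commits carbon to fatty acids, read 10.76 and 10.84 after bleomycin and 11.23 and 11.25 untreated, with an average of -0.44 ± 0.16 (SE, limma, adjusted p = 0.1). The genotypes differed by at most 0.07 there, and both probe sets were lower in both genotypes. Fasn, which builds palmitate, read 12.64 and 12.76 after bleomycin and 12.94 and 12.91 untreated, also lower on both bleomycin arrays.

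Fads1 and Fads2 insert double bonds into polyunsaturated fatty acids. Fads2 read 8.98 and 9.23 in the Tlr4-/- and wild-type bleomycin arrays, against 9.64 and 9.37 untreated, 1.58-fold lower in Tlr4-/- cells and 1.10-fold lower in wild type. Fads1 read 9.48 and 9.82 after bleomycin and 9.95 and 10.10 untreated. Both genes were lower on both bleomycin arrays. Scd2, a stearoyl-CoA desaturase, read 11.81 and 12.08 after bleomycin and 12.29 and 11.91 untreated, a difference of -0.48 in Tlr4-/- cells and of 0.17 in wild type, and its 3 probe sets all went these ways. Its relative Scd1 read 13.75 and 13.90 after bleomycin and 13.85 and 13.84 untreated, near the top of the signal range. Elovl1, which lengthens very long saturated chains, read 12.84 and 13.13 after bleomycin and 13.04 and 12.88 untreated, with its 4 probe sets in accord. Acsl4, which activates arachidonic acid, read 11.73 and 12.03 after bleomycin and 11.84 and 11.97 untreated, so both Tlr4-/- signals stood below both wild-type ones.

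The choline pathway was represented by Chka, the choline kinase that starts it, and Pcyt1a, whose enzyme makes CDP-choline and limits it. Chka read 10.32 and 10.33 in the Tlr4-/- and wild-type bleomycin arrays, against 10.42 and 10.65 untreated. It was the 1 member of 27 whose response was higher in Tlr4-/- cells, by 0.22. Pcyt1a read 9.38 and 9.32 after bleomycin and 9.71 and 9.48 untreated. Both genes were lower on both bleomycin arrays, with averages of -0.21 ± 0.16 and -0.25 ± 0.16 (SE, limma, adjusted p = 0.466 and 0.371).

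**Figure D3:**
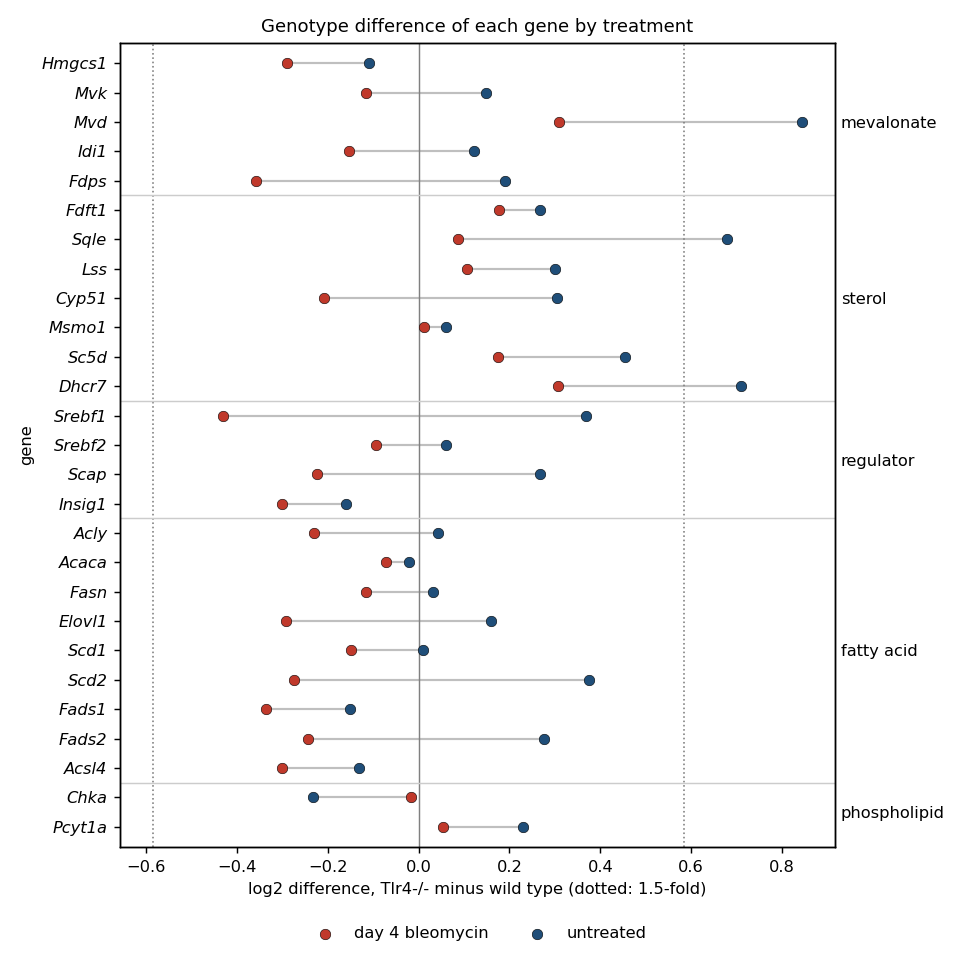
Log2 difference between the Tlr4-/- and wild-type arrays, after bleomycin and untreated, for each of the 27 members, with dotted lines at 1.5-fold. All 9 fatty acid genes lay below 0 after bleomycin, and all 7 sterol genes lay above 0 when untreated.

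Between the genotypes, differences among the groups of genes were not tested. In untreated cells 11 of 12 mevalonate and sterol genes were higher in Tlr4-/- than in wild-type cells, with a median of 0.28, against 6 of 9 fatty acid genes with a median of 0.03 and 62.2% of all genes with a median of 0.08. The sign of some depended on the probe set: untreated, Msmo1 differed by 0.60 in its brighter and -0.48 in its dimmer probe set, and the brightest of Hmgcs1 was at 0.36, against -0.11 for its average. Mvd was 1.79-fold, Dhcr7 1.63-fold and Sqle 1.60-fold higher, 3 of 27 members at 1.5-fold against 5.54% of all genes, and 0 were lower at that size, against 1.92%. After bleomycin 7 of the 12 mevalonate and sterol genes were higher in Tlr4-/- cells, with a median of 0.05, against 53.2% of all genes, and all 9 fatty acid genes and all 4 regulators were lower, with medians of -0.24 and -0.26, against 46.7% of all genes and 11 of 11 AEC2 markers lower. None was at 1.5-fold in that comparison (0 of 27), against 1.51% of all genes higher and 0.616% lower.

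Averaged over the treatments, limma called 0 of 27 members for genotype, as it called 0.0% of all genes. Mvd was higher in Tlr4-/- cells by 0.58 ± 0.17 and Dhcr7 by 0.51 ± 0.17 (SE, limma, higher in 2 of 2 treatments, adjusted p = 0.304 and 0.353), and these 2 had an unadjusted limma p under 0.05, as did 9.04% of all genes. Sqle was higher by 0.38 ± 0.18 (limma adjusted p = 0.551). Both Tlr4-/- signals exceeded both wild-type signals for 4 members, Mvd, Fdft1, Sqle and Dhcr7, against 17.2% of all genes. They were below both for Hmgcs1, Insig1 and Acsl4, 3 of 27 against 9.31%. The place of Hmgcs1 rests on its dimmest probe set, at -1.06 untreated, while the others were at 0.36, 0.18, 0.002 and -0.03. At the lower end were Fads1 at -0.24, Insig1 at -0.23 and Acsl4 at -0.22, each ± 0.16 (SE, limma, adjusted p from 0.707 to 0.754). The average of Fads1 rests on its dimmer probe set: untreated, its probe sets were at 0.26 and -0.56, and with the brighter one alone its genotype average was 0.025.

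**Figure D4:**
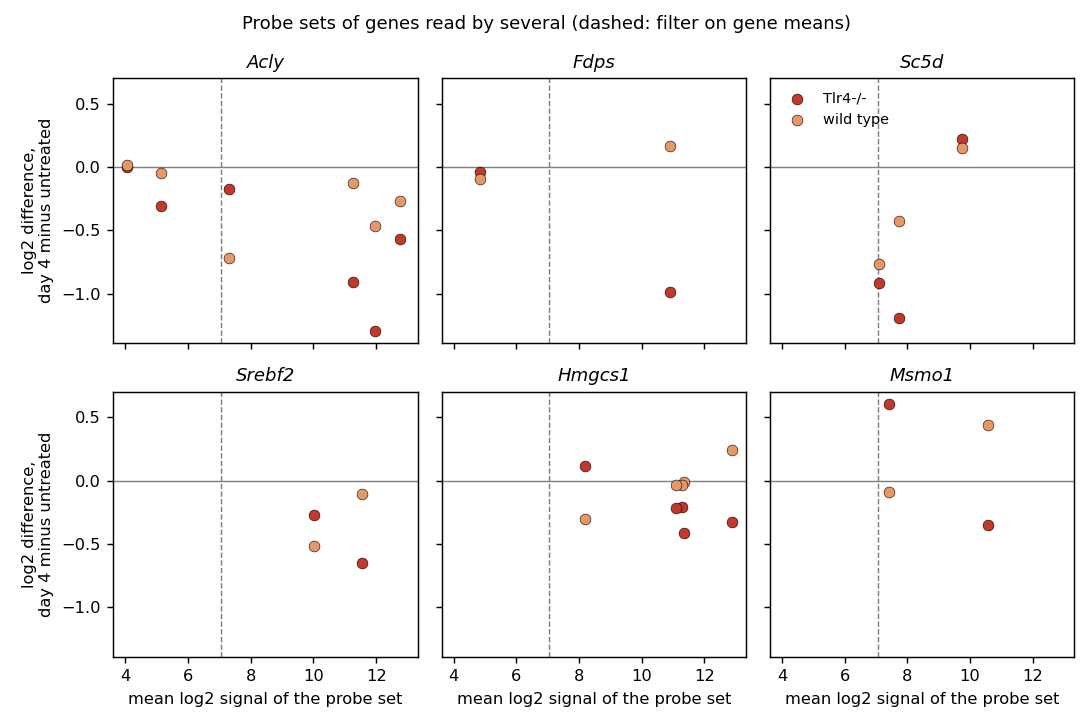
Bleomycin response of single probe sets (log2 difference) against their mean log2 signal for 6 genes read by several probe sets, in Tlr4-/- and wild-type cells, with the filter value dashed. The 3 brightest probe sets of Acly and the bright one of Fdps lay lower in Tlr4-/- than in wild-type cells, while those of Sc5d and Msmo1 went opposite ways.

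Single probe sets are the same measurements before averaging. Of 64 member probe sets with a mean above the filter value, 56 were lower after bleomycin in Tlr4-/- cells and 31 in wild-type cells, with medians of -0.19 and 0.02, against 9393 and 7768 of all 18773 such probe sets. A lower response in Tlr4-/- cells was found for 52 of the 64, against 59.0% of all. Of the 20 members with several such probe sets, 13 had all of them on the same side of 0 in Tlr4-/- cells and 12 in wild type. By the difference of the responses, 9 of the 20 had all of them on the same side. Probe sets of the same gene lay past the array standard deviation on both sides for Msmo1 in Tlr4-/- cells and for Hmgcs1 in wild-type cells. For the difference of the responses this held for 5 genes, Hmgcs1, Fdft1, Msmo1, Srebf2 and Acly. In Srebf2, the brighter probe set had a difference of -0.55 and the dimmer one of 0.24.

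Other genes of lipid handling, listed by function and not among the 28, gave 9 calls for bleomycin in the limma fit, in which 7.18% of all genes rose and 2.53% fell. In sterol synthesis 1 of 13 rose and 1 fell. Both genes lie on the X chromosome, and the part of the mice's sex in their calls was not tested. Nsdhl, a dehydrogenase in the removal of sterol methyl groups, read 9.90 and 9.87 in the Tlr4-/- and wild-type bleomycin arrays, against 10.74 and 10.32 untreated, and fell by 0.65 ± 0.16 (SE, limma, adjusted p = 0.0271). Ebp, the sterol isomerase, read 9.58 and 9.34 after bleomycin and 9.21 and 8.55 untreated, and rose by 0.58 ± 0.17 (SE, limma, adjusted p = 0.0467). Erg28 and Mbtps2 had averages of -0.13 and 0.25 without passing. The list's median was -0.10 in Tlr4-/- and 0.20 in wild-type cells. A lower response in Tlr4-/- cells was found for 12 of 13, against 59.2% of all genes. In the lists that follow it was found for 7 of 11 uptake and efflux genes, 15 of 21 fatty acid and glycerolipid genes and 11 of 20 phospholipid genes.

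Genes of cholesterol uptake, storage and efflux held the largest changes, with 3 of 11 that rose and 2 that fell. Lipa, the lysosomal acid lipase, read 8.61 and 8.62 in the Tlr4-/- and wild-type bleomycin arrays, against 7.68 and 7.42 untreated, and rose by 1.06 ± 0.16 (SE, limma, adjusted p = 0.00119). Abcg1, an exporter of cholesterol, rose by 0.72 ± 0.16 (SE, limma, adjusted p = 0.0156). Lrp1, a lipoprotein receptor named after its value was seen, was called at 0.71 ± 0.16 (SE, limma, adjusted p = 0.0124), but it passed the filter only through the bleomycin arrays, at 7.55 and 7.28 in Tlr4-/- and wild-type cells against 6.80 and 6.60 untreated, so its call is in part fixed by the filter. Macrophages express these 3 genes too, and their markers were higher on the same arrays; the part of macrophages in these calls was not tested. Mylip, a ligase that degrades the low density lipoprotein receptor, read 6.99 and 6.76 after bleomycin and 7.83 and 8.07 untreated, and fell by 1.08 ± 0.17 (SE, limma, adjusted p = 0.00146); it passed the filter only through the untreated arrays, and its call held without the filter. Npc1, which moves cholesterol out of lysosomes, fell by 0.68 ± 0.16 (SE, limma, adjusted p = 0.0158).

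Among other fatty acid and glycerolipid genes 1 of 21 fell and 0 rose. That was Gpam, the mitochondrial acyltransferase of glycerolipid synthesis, at 10.74 and 10.93 in the Tlr4-/- and wild-type bleomycin arrays, against 11.45 and 11.58 untreated (-0.68 ± 0.16, SE, limma, adjusted p = 0.0157). The lipase Pnpla2 was at -0.52, Dgat1, which makes triglyceride, at 0.51 and Elovl7 at 0.25 without passing. Among phospholipid genes 1 of 20 fell and 0 rose. Pcyt2, the ethanolamine counterpart of Pcyt1a, read 10.24 and 10.06 after bleomycin and 11.0032 and 10.47 untreated and fell by 0.58 ± 0.16 (SE, limma, adjusted p = 0.0413), while Pisd was at -0.43, Chkb at 0.53 and Ptpmt1 at 0.44 without passing. Medians of this list were 0.03 in Tlr4-/- and 0.05 in wild-type cells. All 9 calls were lost without the Tlr4-/- bleomycin array and without the wild-type bleomycin array (0 of 9 in each), 7 of 9 held without the Tlr4-/- untreated array and 4 of 9 without the wild-type untreated array. Those fits held treatment without a genotype term and left a single array on 1 side, so a genotype difference enters their values. Without the filter, Lipa and Mylip were the calls left of the 9. With each gene's brightest probe set 7 of the 9 passed the filter, without Mylip and Lrp1, and the calls of Lipa and Abcg1 were left. Centring on array medians lost Nsdhl, Ebp and Pcyt2, quantile normalization lost Ebp and left Lrp1 below the filter, cyclic loess lost Ebp, leaving out suffixed probe sets lost Gpam, and an intensity trend lost 0.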

How the data were processed

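The deposited table held 1 value per probe set and array, read as log2 signals from their range and their similar quantiles. Array medians ran from 6.93 to 6.98. Upper quartiles were 8.58 and 8.54 in the Tlr4-/- and wild-type bleomycin arrays, against 8.57 and 8.47 in the untreated arrays. No label names the authors' software or normalization. Per the labels' protocols, commercial kits served to amplify the cDNA and to label it with biotin. Of 45101 probe sets, 34958 had 1 gene symbol in the platform annotation, updated through Entrez identifiers, and 932 with several were left out. Probe sets were averaged per gene, and 9097 of 18194 genes exceeded the median of 7.05. limma 3.58.1 in R 4.3.3 fitted treatment and genotype over the 4 arrays, with Benjamini-Hochberg adjustment over all 9097 genes; single-array differences had no test. The fit was tested on simulated data with independent noise and the same change in both genotypes, so that test does not bear on unequal responses or on differences between pools. With 1 array per group, p-values measure only how the 2 genotypes or treatments disagree, and the number of arrays limits the precision.

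The members and lists were chosen with earlier results of these data known. All members are given; values on all arrays were required for the 3 with the largest average each way for bleomycin and for genotype and the 2 with the largest difference of responses each way, and the 2 with the largest average each way are named from each wider list. Alternatives covered gene values, the filter, normalization, an intensity trend and each array left out. Promoter sequences came from RefSeq's table for GRCm38.p6.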

Additional observations from a re-analysis of the deposited data

Results flagged for a closer look

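For 14 of 27 members the response to bleomycin was below 0 in Tlr4-/- cells and above 0 in wild-type cells, as for 20.6% of all genes. The difference was not tested, since each genotype had 1 pair of arrays. In the mevalonate and sterol groups the difference of the responses (Tlr4-/- minus wild type) was -0.26 for Mvk, -0.54 for Mvd, -0.28 for Idi1, -0.55 for Fdps, -0.091 for Fdft1, -0.59 for Sqle, -0.51 for Cyp51 and -0.40 for Dhcr7. Among regulators it was -0.80 for Srebf1 and -0.49 for Scap, and among fatty acid genes -0.45 for Elovl1, -0.16 for Scd1, -0.65 for Scd2 and -0.17 for Acsl4. For 5 of the 14 both responses were within the array standard deviation of 0.23, and for 0 of the 14 were both beyond it.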

How the results depend on the processing

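The fit for bleomycin is itself paired, with genotype as a term and 1 residual degree of freedom. No further pairing by replicate number could be fitted, as each group had 1 array. Fits with an array left out held treatment alone or genotype alone, so the other factor enters their values. The median over members moved by under 0.1 in every comparison and setting. For the difference of the responses, -0.26 as reported, it was -0.35 with the brightest probe set and -0.18 with quantile normalization and with cyclic loess. Less the median of all genes it was -0.19 as reported, -0.27 with the brightest probe set, -0.15 with quantile normalization and -0.16 with cyclic loess. The members with a lower response in Tlr4-/- cells numbered 24 to 26, and 53.1% to 63.7% of all genes did; those lower after bleomycin in Tlr4-/- cells numbered 24 to 26, against 46.6% to 54.2% of all genes. Both counts are of 27, or of 28 without the filter. These counts under other settings and cyclic loess were chosen after seeing the data. Members called for bleomycin were 1 without suffixed probe sets and 1 with an intensity trend, and 0 to 1 when an array was left out; members called for genotype stayed at 0. At 1.5-fold, 5 members were apart in Tlr4-/- cells without suffixed probe sets, and with each gene's brightest probe set 5 differed between untreated genotypes and 1 between genotypes after bleomycin. Over all genes, calls for bleomycin (653 higher, 230 lower) were 279 and 62 with the brightest probe set, 319 and 48 without the filter, and 378 and 106 centred on array medians. Leaving out 1 array gave 0 to 802 higher and 0 to 227 lower, with 0 and 0 without the Tlr4-/- bleomycin array and 18 and 3 without the wild-type one. For genotype, where 822 genes had an unadjusted limma p under 0.05 and 0 an adjusted one, 26 were called without suffixed probe sets.

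Signs turned for Sc5d with its brightest probe set (0.19 for bleomycin, 0.22 in Tlr4-/- cells), for genotype in Fads1 and Hmgcs1 (-0.24 and -0.20 as reported), and for members whose reported average lay between -0.11 and 0.15. With the brightest probe set the bleomycin average was -0.069 for Idi1, 0.067 for Cyp51, -0.022 for Scap and 0.052 for Acsl4, and the genotype average 0.077 for Hmgcs1, -0.031 for Mvk, 0.029 for Idi1, 0.081 for Srebf2 and 0.025 for Fads1. Without suffixed probe sets, bleomycin averages were -0.069 for Idi1, -0.017 for Fdft1 and 0.052 for Acsl4, and genotype averages -0.031 for Mvk, 0.029 for Idi1 and -0.14 for Msmo1. Quantile normalization gave -0.0082 for Fdft1 and -0.032 for Dhcr7 (bleomycin), and -0.055 for Mvk, -0.0073 for Cyp51 and -0.0499 for Fads2 (genotype). Cyclic loess gave -0.018 for Dhcr7 and -0.0094 for Elovl1 (bleomycin), and -0.043 for Mvk, -0.0049 for Cyp51 and -0.038 for Fads2 (genotype). Centring gave 0.0079 for Idi1 and 0.0069 for Srebf2 (genotype). Of wider genes not called, Pnpla2 (-0.88) and Dgat1 (0.92) passed without suffixed probe sets and Ptpmt1 (0.66) without the Tlr4-/- untreated array. The cause was not tested.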
